A study of Homo sapiens with 31 samples.

Results

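Clone A3 was a human prostate carcinoma clone that had been passaged in animals and, by its label, was still sensitive to cyclophosphamide (CPA). Its response to the drug was read by setting 4 arrays of CPA-treated A3 tumours against 3 arrays of untreated A3 tumours, which are 7 of the 31 arrays of the study. The parental line was PC3, an established line from a human prostate carcinoma. A3 is a single clone that was re-isolated from a PC3 tumour, kept in culture and implanted again. Treatment was 120 mg/kg CPA given intraperitoneally once tumours averaged 30 mm3, and control tumours received none. The other groups were the unpassaged line (wt, labelled sensitive) and the clones D3 and D4 (passaged, labelled resistant), each with 4 untreated and 4 CPA-treated arrays. All groups carry the PC3 background and grew as xenografts. The labels name no host species and give no time between dosing and collection. A further untreated A3 array, replicate 3, was left out by the submitters as an outlier and was not analysed here. The comparison covered 17314 genes, and the members were selected by their array titles alone.

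CPA is a prodrug. Liver enzymes oxidise it, and the active mustard formed from it links the strands of DNA to each other. Cells with such links are held back while they copy their DNA or before they divide. Each stage of division has its own set of genes. Proteins that copy DNA are made from late G1 into S phase, largely through E2F factors. The bulk histones that package new DNA are made during S phase from clustered, intron-poor genes. Cyclin B and the kinases, kinesins and ubiquitin ligase subunits of mitosis peak in G2 and M, largely through the MuvB and FOXM1 complexes, which act at a promoter element called CHR.

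On these arrays, PC3 tumours of A3 carried the keratins of a luminal epithelium at RMA log2 levels of 9.41 to 9.77 (KRT8) and 9.85 to 10.1 (KRT18). Vimentin (VIM), a mesenchymal filament, lay at 11.05 to 11.37, and the epithelial adhesion molecule EPCAM at 8.09 to 8.42. The androgen-driven prostate genes KLK3 and KLK2 read 5.74 to 6.19 and 5.66 to 6.02, and E-cadherin (CDH1) 5.75 to 6.14. The deposited values carry no detection call, so a level cannot be read as absence. Correlation between arrays across genes was 0.987 to 0.995 within untreated A3, 0.991 to 0.994 within treated A3 and 0.988 to 0.993 between the groups.

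CPA-treated A3 tumours had lower levels of mitotic genes and of replication-dependent histone genes, and somewhat higher levels of a few genes of DNA replication and repair. KIF20A, a kinesin of the central spindle, was 2.71-fold lower. The mitotic kinase PLK1 was 2.40-fold lower and cyclin B1 (CCNB1) 2.05-fold lower. The largest rise was 1.60-fold, in RIBC2, a protein of ciliary microtubules. In all, 61 of 17314 genes (0.352%) passed an adjusted p of 0.05, with 18 higher (0.104%) and 43 lower (0.248%). An unadjusted p under 0.05 was met by 1156 genes (6.68%). The median difference over all genes was 0.00 on the log2 scale. Of the called genes, 7 fell at least 2-fold and none rose as much, and 28 fell and 1 rose at least 1.5-fold.

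The arrays of both groups did not overlap for 60 of the 61 called genes, the exception being H1-2. Over all genes the arrays were separate for 872 (5.04%), 398 higher (2.3%) and 474 lower (2.74%). The number of calls depended on single arrays. It was 26 without untreated replicate 1, 18 without untreated replicate 4 and 38 without either CPA replicate 3 or CPA replicate 4. A fit of the A3 arrays alone called 15 genes, all lower. The split between directions moved with the scaling, to 29 higher and 42 lower after a further quantile normalization and to 8 higher and 35 lower after median centring.

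**Figure D1:**
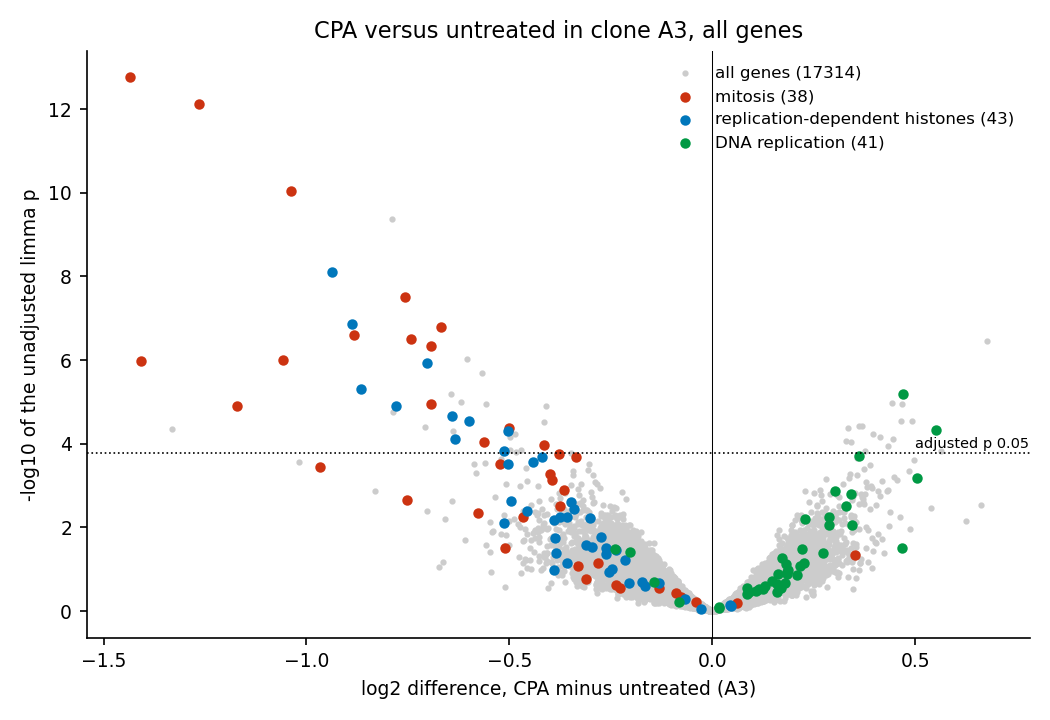
Log2 difference of CPA-treated minus untreated A3 tumours (x axis) against minus log10 of the unadjusted limma p (y axis) for 17314 genes, with the members of the mitosis, histone and DNA replication lists coloured. The 15 mitosis and 10 histone genes above the dotted line lie on the left, and the 2 replication genes above it on the right.

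Among the mitosis genes, 15 of 38 measured members fell and none rose, against 0.248% called lower over all genes. Their median difference was -0.48, and 36 of the 38 were below zero, against 8847 of all 17314 genes. The arrays of the groups were separate for 24 of the 38, all in the lower direction, against 2.74% over all genes. Averaged over the list, the untreated arrays lay at 9.12 to 9.36 and the treated arrays at 8.64 to 8.79, with no overlap. In bulk tumour RNA, fewer cells in mitosis and less mitotic RNA per cell cannot be told apart. Without untreated replicate 4 the list held 9 called genes.

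The KIF20A level was 9.17, 8.92 and 9.20 in the untreated tumours, and 7.73, 7.61, 7.51 and 7.80 in the treated tumours. Every treated array lay more than a log2 unit below every untreated one, and the difference was -1.44 ± 0.11 (SE, adjusted p = 3.0e-09). PLK1, which drives mitotic entry and spindle assembly, read 9.85, 10.06 and 10.02 untreated, and 8.94, 8.59, 8.67 and 8.64 treated. These groups were again far apart (-1.26 ± 0.11 SE, adjusted p = 6.6e-09). CCNB1 encodes the cyclin that activates CDK1 at mitotic entry. Its level was 10.42, 10.49 and 10.41 untreated, and 9.26, 9.32, 9.49 and 9.55 treated (-1.04 ± 0.11 SE, adjusted p = 5.3e-07). The untreated arrays differed by less than 0.1 from each other. CDC20, an activator of the anaphase-promoting complex, read 9.67, 9.94 and 9.79 untreated, and 9.16, 9.13, 9.06 and 8.83 treated. The difference was -0.76 ± 0.10 (SE, adjusted p = 9.1e-05). These 4 genes were called under all 15 alternative settings.

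The promoters of the genes that stand for each group are given here because the groups share short motifs. They are RefSeq windows of GRCh38.p14, all on the plus strand, from 250 bases before to 50 bases after the annotated start. KIF20A lies at chr5:138178862-138179161, PLK1 at chr16:23678639-23678938, CDC20 at chr1:43358731-43359030, H2BC14 at chr6:27814772-27815071, CDC6 at chr17:40287629-40287928 and POLA2 at chr11:65261712-65262011. Capitals mark CHR and CCAAT letters in KIF20A, PLK1 and CDC20, octamer and CCAAT letters in H2BC14, E2F and CCAAT letters in CDC6, and E2F letters in POLA2.
KIF20A: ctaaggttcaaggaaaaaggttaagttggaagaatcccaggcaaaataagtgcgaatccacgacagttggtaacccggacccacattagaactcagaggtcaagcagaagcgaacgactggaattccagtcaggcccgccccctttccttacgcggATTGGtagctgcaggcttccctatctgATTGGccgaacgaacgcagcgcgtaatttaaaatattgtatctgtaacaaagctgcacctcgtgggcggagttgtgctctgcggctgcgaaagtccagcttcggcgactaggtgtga
PLK1: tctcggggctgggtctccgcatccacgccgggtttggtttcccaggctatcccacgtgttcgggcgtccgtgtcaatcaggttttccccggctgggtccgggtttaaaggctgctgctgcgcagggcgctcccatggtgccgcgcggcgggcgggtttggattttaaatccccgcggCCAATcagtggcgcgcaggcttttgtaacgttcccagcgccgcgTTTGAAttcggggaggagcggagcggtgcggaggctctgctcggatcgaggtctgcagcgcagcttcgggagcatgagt
CDC20: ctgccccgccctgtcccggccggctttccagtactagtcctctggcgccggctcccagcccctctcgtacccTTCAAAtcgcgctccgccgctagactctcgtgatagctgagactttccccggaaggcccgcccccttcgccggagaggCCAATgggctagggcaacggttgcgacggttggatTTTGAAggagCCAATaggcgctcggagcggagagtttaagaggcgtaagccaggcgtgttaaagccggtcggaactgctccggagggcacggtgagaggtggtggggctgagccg
H2BC14: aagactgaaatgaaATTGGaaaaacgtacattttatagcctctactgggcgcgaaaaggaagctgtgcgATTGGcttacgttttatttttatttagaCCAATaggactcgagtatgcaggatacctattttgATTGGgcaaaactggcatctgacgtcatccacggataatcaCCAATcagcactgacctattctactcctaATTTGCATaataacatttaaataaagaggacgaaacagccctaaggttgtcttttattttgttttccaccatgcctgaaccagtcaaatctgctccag
CDC6: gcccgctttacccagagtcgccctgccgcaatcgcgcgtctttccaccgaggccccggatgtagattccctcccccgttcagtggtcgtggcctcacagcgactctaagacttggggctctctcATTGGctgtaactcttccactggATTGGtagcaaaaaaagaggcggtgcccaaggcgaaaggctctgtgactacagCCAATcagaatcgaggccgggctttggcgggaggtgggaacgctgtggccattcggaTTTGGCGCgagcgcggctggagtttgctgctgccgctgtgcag
POLA2: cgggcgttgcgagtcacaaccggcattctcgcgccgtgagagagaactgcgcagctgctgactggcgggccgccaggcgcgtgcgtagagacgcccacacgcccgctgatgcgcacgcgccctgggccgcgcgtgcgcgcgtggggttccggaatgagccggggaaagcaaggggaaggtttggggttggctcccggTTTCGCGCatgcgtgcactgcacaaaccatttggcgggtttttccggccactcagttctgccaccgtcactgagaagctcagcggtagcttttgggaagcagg

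The motifs were searched on both strands as TTTGAA or TTCGAA (CHR), CCAAT (bound by NF-Y), ATTTGCAT (the octamer of histone H2B promoters) and TTTCCCGC, TTTCGCGC, TTTGCCGC or TTTGGCGC (E2F). No marked motif shares letters with another in these windows. CHR letters stood in the PLK1 window at base -29, and in CDC20 at -178 and -65. The KIF20A window held 2 CCAAT boxes and none of the CHR letters searched. H2BC14 held the octamer at -48 and 5 CCAAT boxes, and E2F letters at -202 that are left in lower case. CDC6 had E2F letters 8 bases into the transcript, and POLA2 had them at -53 and no CCAAT box.

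Over 27305 RefSeq promoter windows, CHR letters occurred in 16.6%, and in 13.1% of the 13459 measured genes with a window. They occurred in 22 of 31 mitosis promoters (71%) and in 8 of the 13 promoters of mitosis genes called lower (61.5%). CHR letters were thus no more frequent in the called mitosis genes than in the whole list. Of 39 promoters of all genes called lower, 19 held them (48.7%). None of the 14 promoters of genes called higher held them. The octamer was in 1.8% of all windows and in 17 of 38 histone promoters (44.7%). E2F letters were in 3.33% of all windows and in 4.59% of those of measured genes. They were in 19 of 36 replication promoters (52.8%) and in 6 of 14 promoters of genes called higher (42.9%). They also stood in 14 of 38 histone promoters (36.8%) and in 3 of the 10 promoters of histone genes called lower (30%). CHR letters were in 11 of 38 histone promoters (28.9%). CCAAT was common everywhere (35.7%) and stood in 24 of 31 mitosis promoters (77.4%) and 34 of 38 histone promoters (89.5%). A motif match is a description of the letters and was not tested as a binding site.

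**Figure D2:**
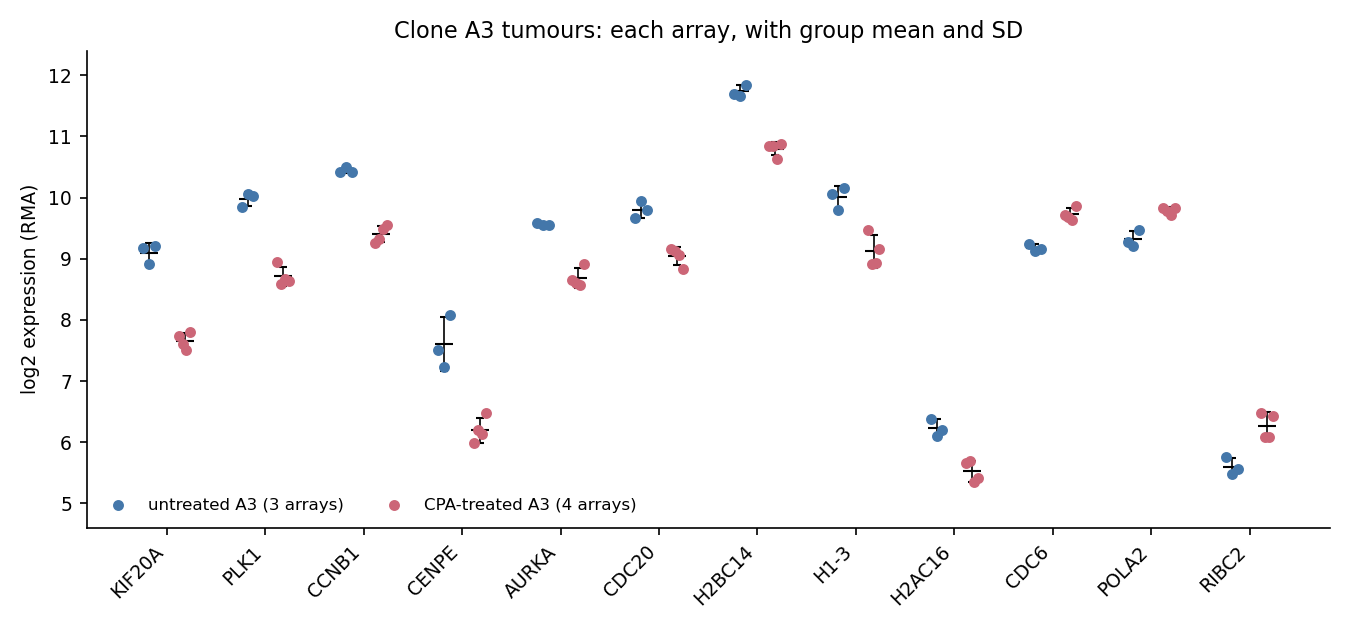
RMA log2 level of 12 genes on each untreated (3 arrays) and CPA-treated (4 arrays) A3 array, with bars for the group mean and SD. The groups do not overlap for any gene shown, but most of these genes were named by a rule that required this. Levels of different genes are read with different probes and are not comparable with each other.

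Read by role, the 3 measured genes of the anaphase-promoting complex and its substrates all fell, with a median of -0.74. They were CDC20, the separase inhibitor securin (PTTG1, -0.74 ± 0.11 SE) and the ubiquitin-conjugating enzyme UBE2C (-0.41 ± 0.09 SE). Among 5 cyclins and CDK regulators, 3 fell: CCNB1, cyclin B2 (CCNB2, -0.69 ± 0.11 SE) and the CDK subunit CKS2 (-0.69 ± 0.13 SE). Cyclin A2 (CCNA2), which acts from S phase onward, differed by -0.08 (adjusted p = 0.96).

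Of 9 mitotic kinases and their partners 3 fell: PLK1, Aurora A (AURKA, -0.88 ± 0.13 SE) and the checkpoint kinase BUB1 (-0.67 ± 0.10 SE). AURKA was even across untreated arrays at 9.58, 9.56 and 9.55, and read 8.64, 8.60, 8.56 and 8.92 in treated arrays. Aurora B (AURKB, -0.04 ± 0.08 SE) lay close to zero. CDK1 was not called (-0.24 ± 0.20 SE, adjusted p = 0.90), and its wide error leaves its difference uncertain. Kinesins gave 3 calls among 6, namely KIF20A, KIF23 of the cytokinetic midzone (-0.56 ± 0.12 SE) and the microtubule depolymerase KIF2C (-0.50 ± 0.10 SE). KIF14 differed by -0.97 and did not pass the test (adjusted p = 0.082). With each of the 7 arrays left out in turn, CKS2 was called in 4 of 7 fits, KIF2C in 3, UBE2C in 2 and KIF23 in 1. These 4 lost their calls without untreated replicate 1 or 4 (adjusted p = 0.0565 to 0.270), and each also without at least 1 CPA array.

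The kinetochore motor CENPE had 1 of the largest differences and also 1 of the widest spreads. It read 7.51, 7.23 and 8.09 untreated, and 5.99, 6.20, 6.13 and 6.47 treated (-1.41 ± 0.23 SE, adjusted p = 0.00118). The groups were separate, but without untreated replicate 4 the adjusted p was 0.0522. It was the only call among 6 kinetochore and checkpoint genes. SPC25, another kinetochore subunit, had the highest value of the list at 0.35 (adjusted p = 0.74). Among spindle and cytokinesis genes, 2 of 9 fell. HMMR, a hyaluronan receptor that also binds the spindle, read 8.18, 7.73 and 8.56 untreated, and 6.66, 6.96, 7.27 and 7.06 treated. Its difference was -1.17 ± 0.22 (SE, adjusted p = 0.00789), and the adjusted p was 0.0565 and 0.174 without untreated replicates 1 and 4. DLGAP5, which stabilises kinetochore fibres, fell by 1.06 and was called under all 15 alternatives. The proliferation marker MKI67 (-0.38), topoisomerase TOP2A (-0.58) and the factor FOXM1 (0.06) did not pass, at adjusted p-values of 0.31, 0.38 and 0.98.

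Several mitotic or spindle genes that were on no list fell as well. FAM83D recruits casein kinase 1 to the spindle. It read 8.97, 8.87 and 8.69 untreated, and 8.14, 8.15, 7.96 and 7.97 treated (-0.79 ± 0.09 SE, adjusted p = 1.8e-06). DEPDC1 fell by 1.33 (adjusted p = 0.0193) with a wide untreated spread of 9.15, 8.19 and 9.15 against 7.15, 7.36, 7.89 and 7.59. Its call was lost when untreated replicate 1 (adjusted p = 0.198), untreated replicate 4 (0.250) or CPA replicate 1, 2 or 4 (0.0503 to 0.0849) was left out. The remaining genes were CDKN3, a phosphatase of CDK2 (-0.71), GAS2L3, which joins actin and microtubules in cytokinesis (-0.64), the spindle protein PSRC1 (-0.60) and GPSM2, which orients the spindle (-0.56). CCNF, a cyclin that carries substrates to a ubiquitin ligase (-0.49), borealin (CDCA8, -0.47) and the microtubule-binding GTSE1 (-0.41) also fell. FAM83D was called under every alternative, and PSRC1 kept its call without each A3 array in turn. GTSE1 was called in 6 of the 7 fits that leave out 1 array, GPSM2 in 5, GAS2L3 in 4, CDKN3 and CCNF in 2 each and CDCA8 in 1. All 6 lost their calls without untreated replicate 4 (adjusted p = 0.0730 to 0.261).

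**Figure D3:**
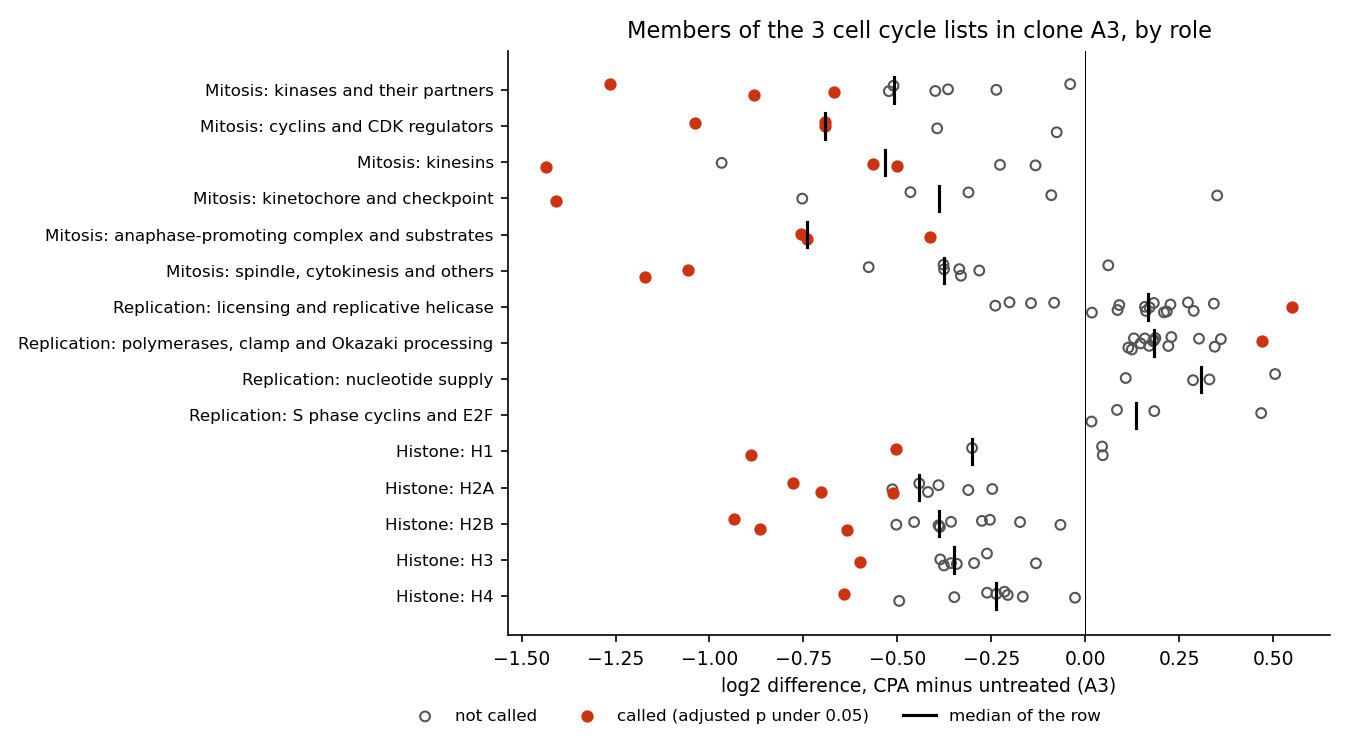
Log2 difference of CPA-treated minus untreated A3 tumours for each measured member of the mitosis, DNA replication and histone lists, 1 row for each role, with called genes filled and a bar at the row's median. The medians of all mitosis and histone rows are below zero and those of the 4 replication rows above it; the roles were assigned after the values were seen.

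Replication-dependent histone genes gave 10 lower calls among 43 measured members and no higher one. The median difference was -0.36, 41 of 43 were below zero, and the arrays were separate for 20, all lower. Over all genes 0.248% were called lower, and the arrays were separate in that direction for 2.74%. The mean of the list was 7.42 to 7.63 in untreated and 7.01 to 7.28 in treated arrays. Histone genes are near-identical copies, so 1 probe set may also bind other copies, and the value of a single gene is uncertain. Without untreated replicate 1 the list held 6 calls, without untreated replicate 4 it held 3, and without CPA replicate 3 it held 4.

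H2BC14, a core histone H2B gene, read 11.70, 11.67 and 11.85 untreated, and 10.85, 10.85, 10.63 and 10.87 treated. Every treated array lay below every untreated one (-0.94 ± 0.12 SE, adjusted p = 2.7e-05). The linker histone gene H1-3 read 10.06, 9.80 and 10.16 untreated, and 9.48, 8.91, 8.93 and 9.15 treated (-0.89 ± 0.13 SE, adjusted p = 0.000338). H2AC16 fell by 0.70 (± 0.12 SE) between 6.39, 6.10 and 6.19 untreated and 5.66, 5.69, 5.34 and 5.41 treated. All 3 kept their call in each alternative that tested them, and the filter on dim genes removed H2AC16.

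Calls came from every core class and from the linker class. There were 3 among 9 H2A genes (median -0.44), 3 among 12 H2B genes (-0.39), 1 among 8 H3 genes (-0.35), 1 among 9 H4 genes (-0.24) and 2 among 5 H1 genes (-0.30). The other called members were H2BC7 (-0.87), H2AC4 (-0.78), H4C2 (-0.64), H2BC3 (-0.63), H3C1 (-0.60), H2AC6 (-0.51) and H1-2 (-0.50). H2AC25 (-0.79), H2AC15 (-0.64) and H2AC20 (-0.50), which were not on the list, fell too. The 10 genes named in the last sentences lost their calls without untreated replicate 4, at adjusted p-values of 0.109 to 0.577. Of the 7 fits that leave out 1 array, H2BC7 was called in 6, H4C2 and H2AC15 in 5, H2AC4 and H3C1 in 4, and H2AC25 in 3. H2BC3, H1-2 and H2AC20 were called in 2 and H2AC6 in 1. The 2 members above zero were linker genes, and the highest was H1-5 at 0.05. H1-2 had arrays that touched, at 8.06 for the lowest untreated array and 8.07 for the highest treated one.

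DNA replication genes lay on the other side of zero. Of 41 measured members 2 rose and none fell, and 37 were positive, with a median of 0.18. Their arrays were separate for 12, all higher. Over all genes 0.104% were called higher, and the arrays were separate in that direction for 2.3%. The list mean was 8.73 to 8.90 in untreated and 8.92 to 9.04 in treated arrays. All 15 polymerase, clamp and Okazaki genes were positive (median 0.18), as were all 4 nucleotide supply genes (median 0.31). Licensing and helicase genes had a median of 0.17 over 18 members, with MCM6 lowest at -0.24.

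CDC6, which loads the replicative helicase at origins, read 9.24, 9.12 and 9.15 untreated, and 9.71, 9.68, 9.64 and 9.87 treated. The groups were separate (0.55 ± 0.12 SE, adjusted p = 0.0193). POLA2, the regulatory subunit of the primase polymerase, read 9.28, 9.21 and 9.46 untreated, and 9.83, 9.77, 9.71 and 9.84 treated (0.47 ± 0.09 SE, adjusted p = 0.00573). Neither gene was called without untreated replicate 1. The adjusted p of POLA2 was 0.0537 without untreated replicate 1, and that of CDC6 was 0.0583, 0.0868, 0.140 and 0.0862 without untreated replicates 1, 2 and 4 and CPA replicate 4. The flap nuclease FEN1 (0.36, adjusted p = 0.054) and the reductase subunit RRM2 (0.51, adjusted p = 0.12) had the smallest adjusted p among the uncalled members of their roles.

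Among 42 genes that repair alkylated or crosslinked DNA, 2 rose, 34 were positive, and the median was 0.12. Over all genes 0.104% were called higher and 8467 of 17314 were positive. RAD54L, a motor of homologous recombination, read 7.82, 7.96 and 7.85 untreated, and 8.45, 8.27, 8.24 and 8.50 treated (0.49 ± 0.10 SE, adjusted p = 0.0153). EXO1, an exonuclease of mismatch repair and end resection, read 9.54, 9.40 and 9.47 untreated, and 9.87, 10.05, 10.08 and 10.13 treated (0.56 ± 0.13 SE, adjusted p = 0.0435). Both are also made mainly in dividing cells. EXO1 lost its call when any array other than CPA replicate 1 was left out, with adjusted p-values of 0.0992 to 0.228. RAD54L lost it without untreated replicates 1 and 4 and CPA replicates 1 and 4, at 0.0555 to 0.124. FANCI of the crosslink sensor complex missed the threshold (0.50, adjusted p = 0.061). BRIP1, a helicase partner of BRCA1, had the highest difference of the list at 0.62 with an adjusted p of 0.43. The direct reversal enzyme MGMT differed by 0.10 (adjusted p = 0.92).

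The other genes that rose had varied roles. RIBC2 read 5.76, 5.47 and 5.56 untreated, and 6.48, 6.08, 6.09 and 6.43 treated (0.68 ± 0.10 SE, adjusted p = 0.000555). Some act in S phase: DONSON, which helps assemble the helicase (0.47), the repressor E2F7 (0.44) and CHAF1B, a chaperone that places histones on new DNA (0.37). PRPS2 makes a nucleotide precursor (0.33). DNAJC22, a J-domain protein (0.47), the lipase cofactor CLPS (0.44), the amino acid carrier SLC1A4 (0.43), the O-glucosyltransferase POGLUT3 (0.41) and the membrane protein TMEM106C (0.40) followed. GABRE, a GABA-A receptor subunit (0.38), the actin regulator CARMIL1 (0.36), the chromatin remodeller subunit PHF10 (0.34) and BRI3BP (0.33) also rose. RIBC2 kept its call without each array in turn. Every other gene that rose lost it without at least 1 of the 7 arrays.

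The remaining genes that fell had other roles. DHRS2, a short-chain dehydrogenase, read 6.50, 6.51 and 6.63 untreated, and 6.07, 6.03, 5.84 and 5.77 treated. The groups were separate (-0.62 ± 0.12 SE, adjusted p = 0.00785), and the adjusted p was 0.109 without untreated replicate 4. The matrix protease MMP10 fell by 0.57 (± 0.10 SE), from 7.42, 7.19 and 7.49 to 6.90, 6.85, 6.54 and 6.91, and was the only call among 35 collagen and matrix genes. The adjusted p of MMP10 was 0.0574 without untreated replicate 4. The transcription factor GATA3 (-0.42), the coregulator SERTAD3 (-0.50) and the non-coding host RNA of miR-31 (MIR31HG, -0.48) also fell, and lost their calls without untreated replicate 4 (adjusted p = 0.124 to 0.447). With 1 array left out, they were called in 3, 1 and 2 of 7 fits. RRP12, which helps export ribosomal subunits, fell by 0.35 and was the only call among 27 ribosome biogenesis genes, of which 26 were below zero. Its call was lost when any 1 of the 7 arrays was left out.

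In all, 45 lists of pathways and cell types with 936 of the 17314 genes were examined. They held 31 of the 61 called genes. The mitosis list (38 genes) and the histone list (43 genes) alone held 25 of the 43 genes that fell. The lists were written with earlier results of these data known, so this share may partly be a result of that choice. No member was called in 39 lists. Since only 0.352% of all genes were called, a short list without a call does not show that its genes were unaffected. The 15 cell cycle inhibitors had a median of 0.03, and among them the CDK inhibitor CDKN1A differed by 0.09 (adjusted p = 0.92). The 20 genes of damage signalling had a median of 0.07, and the fork protein TIMELESS came closest to a call (0.38, adjusted p = 0.0863). Among 28 apoptosis regulators, BIRC5, which is also a mitotic gene, came closest (-0.34, adjusted p = 0.055).

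Genes that handle CPA itself did not pass the test. The activating enzymes CYP2B6 (-0.10), CYP2C8 (-0.32) and CYP3A5 (0.03), with their partners POR (0.04) and CYB5A (-0.11), had adjusted p-values from 0.741 to 0.995. Only 5 of the 9 listed activation genes were measured. CYP2C8 read 3.98, 3.96 and 3.93 untreated, and 3.50, 3.38, 3.80 and 3.87 treated. The CYP genes all read below the medians of the A3 arrays, which were 7.12 to 7.14. The 19 aldehyde dehydrogenases, some of which detoxify the activated drug, had a median of 0.02. The median was 0.00 for the 27 glutathione genes and -0.01 for the 12 efflux transporters. No call was made among 20 NRF2 targets, 40 interferon-induced genes, 32 hypoxia and glycolysis genes or 34 unfolded protein and integrated stress response genes. Over all genes 0.352% were called, so lists this short can lack a call without being unaffected. Some lists lay mostly on 1 side without a call. Of 29 oxidative phosphorylation genes 28 were below zero (median -0.11), of 16 heat shock genes 14 (median -0.16) and of 18 sterol synthesis genes 16 (median -0.12). Over all genes 8847 of 17314 were below zero. The lean was not limited to these pathways. Of 20 housekeeping genes 16 were below zero (median -0.07), and of 20 ribosomal protein genes also 16 (median -0.09).

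A human array can also bind RNA of host cells. The mean levels of 8 lists of fibroblast, endothelial, myeloid, lymphocyte, erythroid, muscle, adipocyte and skin markers, with 5 to 18 measured genes each, overlapped between treated and untreated A3 tumours. None of their members was called, against 0.352% called over all genes, a share at which lists this short would seldom hold a call. Differences of the list means ran from -0.02 to 0.09. The highest was for 17 endothelial genes, at 6.15 to 6.34 in untreated and 6.29 to 6.33 in treated arrays. Of these 17 genes 14 were positive (median 0.10), and of 11 muscle genes 9 (median 0.08), against 8467 of all 17314 genes. The other host lists had medians of 0.00 to 0.04. The part of host RNA in the results was not tested.

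The same contrast in the other lines had 8 calls in wt (0.0462%), 1 of them higher (0.00578%) and 7 lower (0.0404%). It had 40 calls in D3 (0.231%), none of them higher (0%), and 178 in D4 (1.03%), 115 higher (0.664%) and 63 lower (0.364%). No arrays are shared between these contrasts, although the estimate of each gene's spread is common. Of the 61 genes called in A3, 8 were called in the same direction in wt, which are all 8 of the wt calls. In D3 the shared genes numbered 30 of 61 and 30 of 40, and in D4 30 of 61 and 30 of 178. None was called in the opposite direction. The sign was the same as in A3 for 56 genes in wt, 61 in D3 and 59 in D4. The share of all genes with the same sign is not given here, so these counts have no background to be weighed against.

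KIF20A differed by -1.44 in A3, -0.998 in wt, -1.28 in D3 and -1.11 in D4, with a call in each line. PLK1 differed by -1.26, -0.93, -1.10 and -0.96 in the same order. DHRS2 differed by -0.62, -0.56, -0.88 and -0.95, called in all lines as well. CENPE was nearer zero in D4 (-0.20, adjusted p = 0.60) than in A3 (-1.41), wt (-0.89) and D3 (-0.97). GATA3 differed by -0.42 in A3, 0.05 in wt, -0.05 in D3 and -0.12 in D4, and its difference between A3 and wt did not pass the test.

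The list medians also varied between lines. The mitosis median was -0.48 in A3 (15 called lower), -0.23 in wt (5 lower), -0.46 in D3 (15 lower) and -0.17 in D4 (8 lower, 1 higher). The histone median was -0.36 in A3 (10 lower), -0.17 in wt (none), -0.30 in D3 (7 lower) and -0.39 in D4 (13 lower). For DNA replication the medians were 0.18, 0.27, 0.06 and 0.27, with 2, 1, 0 and 4 genes called higher.

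**Figure D4:**
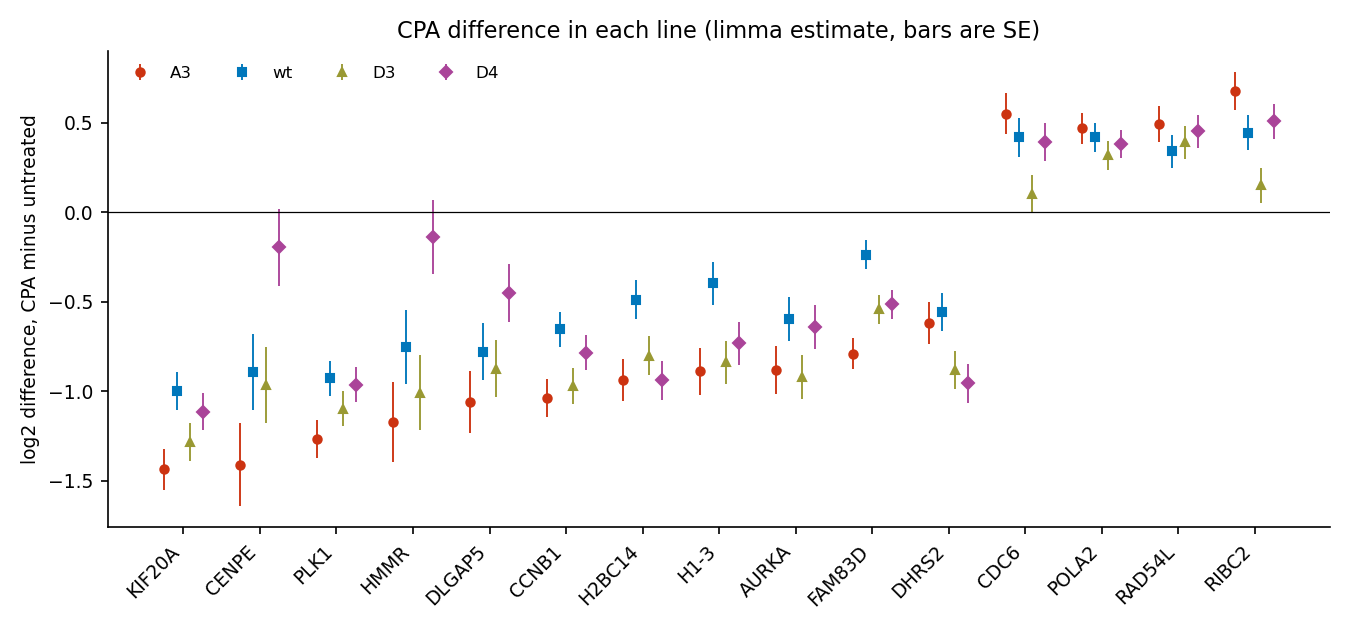
Log2 difference of CPA-treated minus untreated tumours (y axis, limma estimate with its SE) for 15 genes called in A3 (x axis), in A3, wt, D3 and D4. The A3 points of KIF20A, CENPE and PLK1 are the lowest of their columns, but the genes were taken for their difference in A3, and no difference between lines passed the test.

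Whether the A3 response differed from the others was tested gene by gene. The difference between the A3 response and the wt response gave 0 calls with limma (0%), and 554 genes (3.2%) had an unadjusted p under 0.05. Against the mean response of the resistant clones D3 and D4 it also gave 0 calls, with 520 genes (3%) at an unadjusted p under 0.05. The smallest adjusted p-values were 0.9995 (FAM83D, against wt) and 0.168 (KRT73, against the resistant clones).

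A p that misses the threshold does not show that the responses were alike, so the intervals are given for some genes. For KIF20A the A3 response was 0.44 lower than that of wt on the log2 scale (difference -0.44, 95% confidence interval -0.76 to -0.12) and differed by -0.24 from the resistant mean (-0.52 to 0.04). FAM83D differed from wt by -0.55 (-0.79 to -0.31). For CDC6 the differences were 0.13 (-0.19 to 0.46) and 0.30 (0.02 to 0.59). For DHRS2 they were -0.06 (-0.39 to 0.26) and 0.30 (0.01 to 0.58). These intervals are not adjusted for the number of genes. Of 38 mitosis genes, 8 had an unadjusted p under 0.05 against wt and 4 against the resistant mean, all with a more negative response in A3. Of 43 histone genes the numbers were 13 and 1, also more negative in A3, and of 41 replication genes they were 0 and 1. Over all genes, 554 (3.2%) against wt and 520 (3%) against the resistant mean had such a p. Of these, 380 and 299 were more negative in A3. The 1 histone gene against the resistant mean and the counts of replication genes were close to these shares. The mitosis mean was also higher in untreated A3 (9.12 to 9.36) than in untreated wt (8.44 to 8.90). This was not particular to A3, since untreated D3 (8.99 to 9.29) and untreated D4 (8.90 to 9.27) overlapped it. Treated arrays lay at 8.64 to 8.79 in A3, 8.23 to 8.46 in wt, 8.60 to 8.73 in D3 and 8.81 to 9.01 in D4. Whether the untreated level bears on the response was not tested.

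For the genes with the smallest p against wt, none of them called, the numbers are differences between CPA responses, not between levels. The A3 response was lower for FAM83D, the transcription factor GATA3 (-0.46), H2AC16 (-0.63), the sulfotransferase SULT1C4 (-0.72) and LYRM1 (-0.39). It was higher for PHF10 (0.44), the potassium channel subunit KCNS2 (0.49), GABRE (0.38), the neurokinin receptor TACR3 (0.53) and the lipase PNPLA3 (0.49). Against the resistant mean, the A3 response was lower for the kinase PRKG2 (-0.65), DEFB136 (-0.67), TSGA10 (-0.61), MSMB (-0.51) and the neurotrophin BDNF (-0.37). It was higher for the keratin KRT73 (0.56), triadin (TRDN, 0.57), TACR3 (0.57), PROX2 (0.53) and the phosphatase PPM1H (0.38). Most of these genes were read at low levels. KRT73, for example, read 3.82, 4.14 and 4.17 in untreated A3 and 4.34, 4.39, 4.37 and 4.44 in treated A3.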

How the data were processed

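Total RNA was hybridised to Affymetrix Human Gene 1.0 ST arrays. The deposited values were RMA log2 levels, a step named in the submitters' processing notes, with software and version not given in the sources used here. Of 23989 probe sets, 17624 had 1 gene symbol, 411 several and 5954 none. For each of 17314 genes the probe set with the highest overall mean was used, and 17290 genes were matched by Entrez number to RefSeq names of GRCh38.p14. limma 3.58.1 in R 4.3.3 (lmFit, eBayes) fitted 8 group means to 31 arrays, leaving 23 residual degrees of freedom. Benjamini-Hochberg adjustment ran over all genes, with calls under 0.05. The median residual SD was 0.148, and the few arrays limit the precision. The labels give no batches and do not say that each array held another animal's tumour, so p-values measure only the spread between samples, which may be technical.

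The comparison was proposed, and the gene lists were written, with earlier results of these data known, so lists have counts and medians and no test. Genes were named by a rule that took the 12 highest and 12 lowest called genes without overlap between groups, up to 4 called members of each list and, for contrasts between lines, the 5 with the smallest p in each direction. The remaining called genes, and uncalled list members, were chosen after their values were seen. Some items are not reported here. The 15 alternatives were a fit of the compared groups alone, a replicate block, a variance trend, array weights, a further quantile normalization, median centring, leaving out the dimmest 30% of genes, the probe set of highest variance and each of the 7 A3 arrays left out.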

Additional observations from a re-analysis of the deposited data

Results flagged for a closer look

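Chance alone sets apart about 1 in 20 groups of this size, and 5 of 80 genes had a treated A3 array that stood apart. GAS2L3 read 8.24 on CPA replicate 1 against 8.56 to 8.62 on the others. H2BC14 read 10.6 on CPA replicate 3 against 10.8 to 10.9, and MMP10 read 6.54 there against 6.85 to 6.91. PNPLA3 read 5.38 on CPA replicate 3 against 5.23 to 5.25. TACR3 read 4.32 on CPA replicate 2 against 3.84 to 3.91.

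For 3 of the 80 named genes (3.75%) the treated arrays lay wholly on opposite sides of the untreated arrays in A3 and in another line. Over all 17314 genes this held for 24 (0.139%). The 3 genes had been named for a small p of a difference between lines, so their share is a result of that choice. BDNF, a neurotrophin, differed by -0.22 in A3 and 0.26 in D4. KRT73, a hair follicle keratin, differed by 0.34 in A3 and -0.29 in D4. LYRM1 differed by -0.23 in A3 and 0.16 in wt. None of these differences was called within its line. The contrast of A3 with D4 alone was not tested, and that of LYRM1 between A3 and wt had an adjusted p of 0.9995 with limma.

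Of the probe sets without a single gene symbol, which the comparisons above leave out, 6 passed an adjusted p of 0.05 over all 23989 sets, 1 higher and 5 lower. They are not named here.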

How the results depend on the processing

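The 61 calls in A3 (18 higher, 43 lower) became 15 (0 higher, 15 lower) with only the A3 arrays in the fit, and 177 (47 higher, 130 lower) with array weights. Genes called higher numbered 29 after quantile normalization and 8 after median centring. The labels do not say whether same-numbered arrays are pairs. Deviations of same-numbered A3 arrays correlated at -0.234, 0.102 and 0.267, and those of differently numbered ones at -0.458 to 0.366. These few values cannot decide whether the arrays were paired. With the replicate block, in which CPA replicate 3 has no untreated partner and adds nothing to A3, 25 genes were called (4 higher, 21 lower), all among the 61. Leaving out 1 array gave 18 to 61 calls, 4 to 13 higher and 14 to 51 lower. The contrasts of A3 with wt and with D3 and D4 gave 0 calls in each setting run. No called gene changed sign in the 15 alternatives, and 12 of 61 were called in each alternative that tested them. The causes were not tested.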
